A study of Mus musculus with 594 samples.

Results

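Tex19.1, Tex101, Tuba3a and Rassf1 are 4 genes whose promoters are known as targets of silencing by DNA methylation. They were followed here across 29 chromatin-targeting compounds in both mouse pancreatic endocrine lines, αTC1 and βTC3. The 4 genes carry 5 of the 22716 probe sets on the Affymetrix expression arrays, and 4 of the 11807 genes that a probe set names alone. They were chosen with their changes under inhibitors of DNA methylation known. Values under those inhibitors, and their comparison with deacetylase inhibitors, are therefore given as a description, without a test.

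The study asked which genes respond when chromatin-modifying enzymes are inhibited. αTC1 is an alpha-cell-derived line and βTC3 a beta-cell-derived line, each from a mouse tumour driven by the simian virus large T antigen, under the glucagon promoter in αTC1 and the insulin promoter in βTC3. Each line is a single dividing tumour line and carries that oncogene in treated and DMSO wells alike. Cells received a compound in DMSO, or DMSO alone, for 1, 6 or 24 h. There were 3 arrays per compound, line and time, except in αTC1 at 24 h, where chaetocin had 4 and CI-994, SAHA, scriptaid and 2 code-named compounds had 2 each. DMSO groups held 14 arrays at each time in αTC1, and 12, 10 and 12 arrays at 1, 6 and 24 h in βTC3. The inhibitors of DNA methylation were 5-azadeoxycytidine, zebuarine and RG-0108 (names as labelled), each at 10 µM. The 13 deacetylase inhibitors were 8 hydroxamic acids, 2 cyclic tetrapeptides and 3 ortho-amino anilides, at doses between 0.015 and 10 µM. Chaetocin (1.7 µM) and BIX-01294 (10 µM) inhibit histone lysine methyltransferases. The rest were the arginine methyltransferase inhibitor AMI-1 (10 µM) and 10 compounds with a BRD code name only, at 0.91 to 10 µM.

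The 299 arrays of αTC1 and 295 of βTC3 came in 7 labelled batches, and array medians lay between 4.36 and 4.73 on the log2 scale. How many arrays a group holds limits how precise its mean is. No label says that replicates came from separate cultures, so p-values measure only the spread between arrays, which may be technical. In DMSO at 24 h, 5 of 6 alpha cell markers had the higher level in αTC1 and 7 of 7 beta cell markers in βTC3. The glucagon gene Gcg averaged 12.3 in αTC1 and 8.79 in βTC3 (log2 intensity), and the insulin gene Ins2 averaged 4.31 in αTC1 and 13.2 in βTC3. The separation was not complete: the alpha cell marker Ttr averaged 11.4 in αTC1 and 12.9 in βTC3, and the beta cell markers G6pc2 (8.77 in αTC1 and 10.9 in βTC3) and Nkx2-2 (7.79 in αTC1 and 7.98 in βTC3) were high in both. Of 12 germ and Sertoli cell markers, Rhox5 averaged 7.97 in αTC1 and 8.86 in βTC3, and the other 11 were at or below 3.80 in αTC1 and 3.52 in βTC3, Ddx4 lowest at 2.58 in αTC1 and 2.61 in βTC3.

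DNA methylation adds a methyl group to cytosine, in mammals mostly where cytosine is followed by guanine (CpG), and methylated CpG-rich promoters are usually silent. Maintenance methyltransferase copies the marks after DNA replication. The nucleoside analogue 5-azadeoxycytidine is built into new DNA, where it traps that enzyme, so marks are lost as cells divide. Many genes of germ cells are held silent in somatic cells by such promoter methylation, and the RASSF1 promoter is among those most often found methylated in human tumours.

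Tex19.1 acts in mouse germ cells and early embryos, where it helps restrain retrotransposons. Tex101 encodes a surface glycoprotein of testicular germ cells that is needed for mouse sperm to reach the oviduct. Tuba3a encodes an alpha tubulin found mainly in testis. Rassf1 encodes a Ras-association-domain scaffold that binds microtubules and activates the Mst kinases of the Hippo pathway.

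The sequences just before the annotated start of each gene are shown because CpG positions in them are where methylation could act. Methylation itself was not measured. They come from RefSeq on the GRCm38.p6 build and run 5′ to 3′ on the gene's strand, with each CG in capitals. For Rassf1 only the 129 bases of its window that precede the annotated gene are shown.
Tex19.1 (chr11:121145893-121146142, plus strand): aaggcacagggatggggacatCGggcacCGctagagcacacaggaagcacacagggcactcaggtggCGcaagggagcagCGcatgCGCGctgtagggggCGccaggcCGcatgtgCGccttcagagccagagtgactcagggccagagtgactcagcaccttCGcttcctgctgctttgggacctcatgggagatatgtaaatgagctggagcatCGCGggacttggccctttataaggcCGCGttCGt
Tex101 (chr7:24672051-24672300, minus strand): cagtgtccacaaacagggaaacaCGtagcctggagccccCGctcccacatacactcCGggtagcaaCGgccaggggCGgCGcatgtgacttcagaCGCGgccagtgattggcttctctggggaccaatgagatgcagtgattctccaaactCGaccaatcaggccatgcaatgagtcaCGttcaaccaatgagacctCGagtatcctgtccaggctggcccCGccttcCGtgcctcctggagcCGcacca
Tuba3a (chr6:125286082-125286331, minus strand): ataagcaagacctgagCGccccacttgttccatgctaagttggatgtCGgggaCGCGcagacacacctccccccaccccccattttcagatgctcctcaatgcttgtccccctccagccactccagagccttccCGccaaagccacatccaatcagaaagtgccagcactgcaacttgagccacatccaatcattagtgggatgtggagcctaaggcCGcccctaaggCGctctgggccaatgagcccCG
Rassf1 (chr9:107551305-107551433, plus strand): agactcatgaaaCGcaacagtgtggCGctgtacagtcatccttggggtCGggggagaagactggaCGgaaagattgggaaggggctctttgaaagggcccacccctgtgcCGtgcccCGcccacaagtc

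CpG content differed among the 4 promoters. The 250 bases upstream held 15 CpGs for Tex19.1, 14 for Tex101 and 8 for Tuba3a, against a median of 6 over all 32851 mouse promoter windows of that length. Observed over expected CpG was 0.643, 0.639 and 0.403 for these 3 genes, against a median of 0.373. The 2 annotated Rassf1 starts had 23 and 24 CpGs, with ratios of 0.815 and 0.850. The letters GCGGGA, a core recognised by E2F factors, were searched on both strands; they occurred upstream of Tex19.1, Tuba3a and both Rassf1 starts, not in the Tex101 window, and in 16.9% of all windows. The letters CACGTG, an E-box, were in none of these windows and in 6.0% of all windows.

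The gene bodies lie at chr11:121146143-121148314 (Tex19.1), chr7:24668012-24672050 (Tex101), chr6:125278270-125286081 (Tuba3a) and chr9:107551434-107562267 (Rassf1). Tex19.1 lies near its paralogue Tex19.2 (chr11:121116215-121118677), and Tuba3a has a close copy, Tuba3b (chr6:145615963-145621477), without a probe set of its own. The suffixes of both Tuba3a probe sets mark probes that can match several transcripts, so signals from Tuba3a and Tuba3b cannot be told apart here. Whether other alpha tubulins add to the Tuba3a signal was not checked. The Tex19.1 signal is uncertain to the extent that its probes could match Tex19.2.

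In DMSO at 24 h the germline members gave little signal. Tex19.1 averaged 3.33 ± 0.23 in αTC1 (SD, n = 14) and 3.22 ± 0.19 in βTC3 (n = 12) on the log2 intensity scale. Tex101 averaged 2.83 ± 0.13 in αTC1 and 2.81 ± 0.12 in βTC3. At such levels hybridisation background and a low transcript level cannot be told apart. Tuba3a averaged 3.82 ± 0.23 in αTC1 and 4.07 ± 0.34 in βTC3 by the probe set ending in _s_at, and 3.87 ± 0.13 in αTC1 and 4.15 ± 0.19 in βTC3 by the probe set ending in _x_at. As a placement within the array only, since probes differ in affinity, the mean over all arrays was at percentile 12.4 of probe sets for Tex101, 33.2 for Tex19.1, 41.8 and 42.5 for Tuba3a and 73.3 for Rassf1.

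Rassf1 was not silent in either line by its probe set. Which of its annotated starts gave the signal was not measured, so silence of a single start cannot be judged here. Rassf1 averaged 7.02 ± 0.14 in αTC1 (lowest 6.76, median 7.07, highest 7.22) and 6.58 ± 0.13 in βTC3 (lowest 6.27, median 6.59, highest 6.83) in DMSO at 24 h. αTC1 was higher than βTC3 by 0.42 ± 0.07 (SE; limma adjusted p = 6.9e-08), in a comparison that called 57.8% of all probe sets, and the highest βTC3 array lay above the lowest αTC1 array. Tuba3a by _x_at was lower in αTC1 than in βTC3 by a log2 difference of -0.27 ± 0.09 (adjusted p = 0.0087), a call lost in batches 7 to 10 alone (-0.17). The other probe sets did not pass, with αTC1 minus βTC3 of 0.10 ± 0.11 for Tex19.1, 0.02 ± 0.06 for Tex101 and -0.24 ± 0.13 for Tuba3a _s_at.

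Rassf1 also moved with time in DMSO. Its mean was 6.79 ± 0.18 at 1 h, 7.12 ± 0.28 at 6 h and 7.02 ± 0.14 at 24 h in αTC1, and 6.29 ± 0.16, 6.53 ± 0.15 and 6.58 ± 0.13 at the same times in βTC3. Against 1 h, the 24 h level was higher by 0.23 ± 0.06 in αTC1 (adjusted p = 0.0115) and by 0.30 ± 0.06 in βTC3 (adjusted p = 0.0011), in comparisons that called 5.85% and 8.74% of probe sets. The 6 h level was higher than at 1 h by 0.34 ± 0.06 in αTC1 (adjusted p = 4.6e-04) and 0.25 in βTC3 (adjusted p = 0.0414), where 2.16% and 1.28% were called. The 6 h and 24 h means of each line lay within 1 SD of each other. No germline member passed in any of these 4 comparisons. By design, each compound was set only against DMSO of its own line and time.

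After 24 h of 5-azadeoxycytidine all 4 genes were higher in αTC1, and Tex19.1, Tuba3a and Rassf1 in βTC3. Tex19.1 in αTC1 stood at 6.12, 6.47 and 5.26 in the 3 treated arrays, against 3.03 to 3.78 in DMSO (median 3.27). Every treated array lay above every DMSO array. The change was 2.63 ± 0.23 (log2, SE), and 1.61 with log2(value + 16), which damps low intensities. Because DMSO signal may be background, no fold is given for Tex19.1 or Tex101. In βTC3 the treated arrays of Tex19.1 stood at 3.54, 4.87 and 5.02, against 2.91 to 3.54 in DMSO (median 3.22). The first treated array lay at the top of the DMSO range, only 0.13 above the DMSO mean of its batch, while the others were 1.64 and 1.90 above theirs. The change was 1.20 ± 0.14, and 1.69 without that array.

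Tex101 was clearly higher under 5-azadeoxycytidine in αTC1. Its αTC1 arrays stood at 4.12, 4.37 and 4.19, against 2.61 to 3.13 in DMSO (median 2.84), a change of 1.45 ± 0.12, and 0.61 with log2(value + 16). In βTC3 they stood at 2.93, 2.86 and 3.08, against 2.63 to 3.04 in DMSO (median 2.80), a change of 0.14 ± 0.09. Of the treated arrays, 2 of 3 lay inside the DMSO range in βTC3, and none did in αTC1.

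Tuba3a was higher in both lines and by both probe sets. By _s_at the treated arrays stood at 4.93, 6.22 and 5.70 in αTC1, against 3.36 to 4.23 in DMSO (median 3.83), and at 5.16, 4.97 and 5.38 in βTC3, against 3.49 to 4.75 in DMSO (median 4.12). No treated array reached into the DMSO range in either line. The changes were 1.82 ± 0.24 in αTC1 and 1.16 ± 0.17 in βTC3 by this probe set, and 1.56 ± 0.17 in αTC1 and 1.07 ± 0.13 in βTC3 by _x_at. With log2(value + 16) they were 1.14 in αTC1 and 0.69 in βTC3 by _s_at, and 0.96 in αTC1 and 0.67 in βTC3 by _x_at.

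Rassf1 started from a measured level and still rose more than 2-fold in both lines. Its treated arrays stood at 8.71, 8.89 and 8.79 in αTC1, against 6.76 to 7.22 in DMSO, and at 7.71, 8.21 and 8.33 in βTC3, against 6.27 to 6.83 in DMSO. The groups were well separated in both lines, with within-batch changes of 1.62 to 1.89 in αTC1 and 1.17 to 1.83 in βTC3. The changes were 1.78 ± 0.12, 3.43-fold, in αTC1 and 1.49 ± 0.11, 2.81-fold, in βTC3.

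For reference, 5-azadeoxycytidine raised 2.47% of probe sets in αTC1 and 3.38% in βTC3 at an adjusted p under 0.05, and 5.78% and 7.32% were called in either direction. Since the members were chosen on this contrast, nothing is read from their place in it. The αTC1 change minus the βTC3 change was 1.37 ± 0.26 for Tex19.1, 1.26 ± 0.14 for Tex101, 0.69 ± 0.30 and 0.44 ± 0.22 for the Tuba3a probe sets _s_at and _x_at, and 0.29 ± 0.16 for Rassf1.

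Zebuarine and RG-0108 gave another pattern at the same dose. Under zebuarine, Rassf1 in βTC3 stood at 8.10, 7.73 and 7.69, against 6.27 to 6.83 in DMSO, every array above that range. The change was 1.25 ± 0.11, 2.37-fold, and between 1.19 and 1.28 when any 1 array was left out. In αTC1 the zebuarine arrays of Rassf1 stood at 7.33, 6.94 and 6.93, against 6.76 to 7.22 in DMSO, a change of 0.05 ± 0.12. Zebuarine thus moved Rassf1 in βTC3 and left it in the DMSO range, apart from 1 array just above it, in αTC1. The αTC1 change minus the βTC3 change was -1.20 ± 0.16.

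The germline members stayed near DMSO under zebuarine, with changes of -0.10 and 0.02 for Tex19.1, -0.08 and 0.00 for Tex101, -0.17 and 0.23 for Tuba3a _s_at and -0.27 and 0.23 for _x_at in αTC1 and βTC3. Across all probe sets, zebuarine raised 0% in αTC1, where 1438 probe sets had an unadjusted p under 0.05 in either direction, and 1.46% in βTC3. Under RG-0108 all 5 probe sets changed by -0.07 to 0.28 in αTC1 and by -0.36 to 0.11 in βTC3. RG-0108 raised 0% of all probe sets in αTC1 and 0.00555% in βTC3, with 1233 and 999 at an unadjusted p under 0.05.

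**Figure D1:**
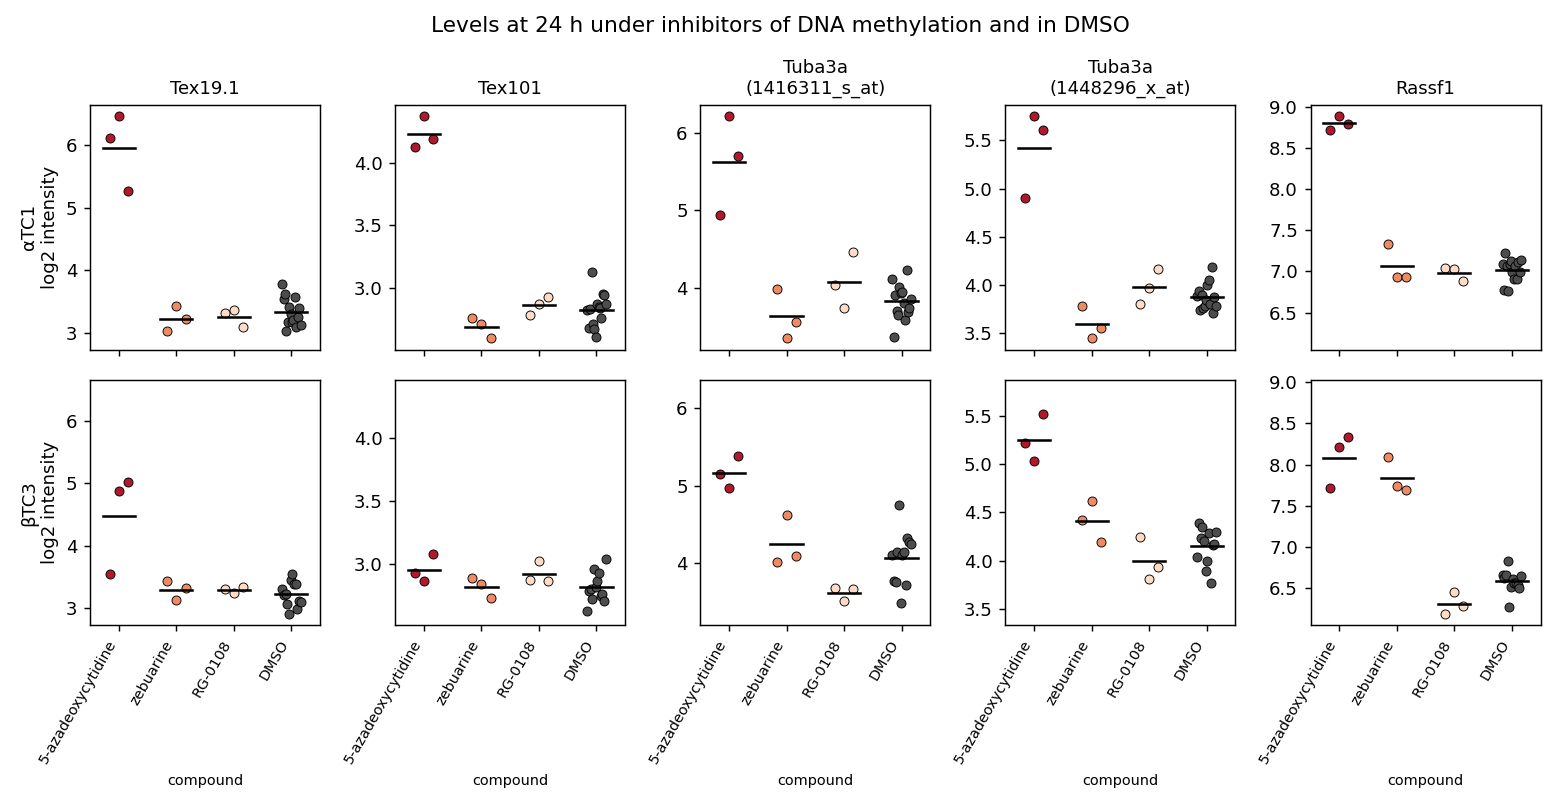
Log2 intensity of the 5 probe sets (columns) at 24 h in αTC1 (top row) and βTC3 (bottom row) under 5-azadeoxycytidine, zebuarine, RG-0108 and DMSO, with 1 point per array and a line at each group mean. Under 5-azadeoxycytidine every array lies above the DMSO points except for Tex101 in βTC3 and 1 βTC3 array of Tex19.1 at 3.54; under zebuarine only Rassf1 in βTC3 stands clear of DMSO as a group.

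The rise under 5-azadeoxycytidine was late. At 1 h the changes ran from -0.10 to 0.41 in αTC1 and from -0.07 to 0.08 in βTC3. At 6 h in αTC1, Tex19.1 stood at 3.48, 3.63 and 4.15 (change 0.53 ± 0.13) and Rassf1 at 7.51, 7.29 and 8.14 (change 0.61 ± 0.11), against 6.80 to 7.74 for Rassf1 in DMSO. Tuba3a changed by 0.58 ± 0.20 and 0.28 ± 0.13 by its 2 probe sets and Tex101 by -0.02 ± 0.10. In βTC3 at 6 h the changes were 0.08 for Tex19.1, -0.04 for Tex101, 0.42 and 0.48 for Tuba3a and 0.06 for Rassf1. At 6 h the compound changed 0.122% of all probe sets in αTC1 and 0.00555% in βTC3.

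**Figure D2:**
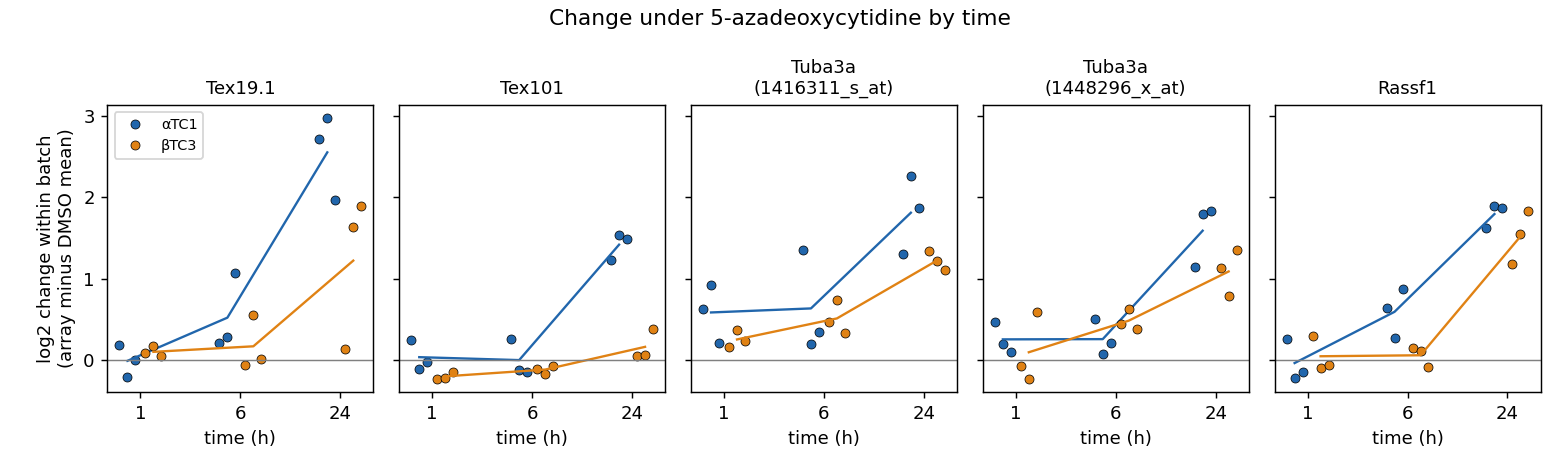
Change of each 5-azadeoxycytidine array from the DMSO mean of its own batch (log2, vertical axis) at 1, 6 and 24 h (evenly spaced, horizontal axis) for the 5 probe sets, with αTC1 in blue and βTC3 in orange and lines joining group means. At 24 h all αTC1 arrays lie between 1.14 and 2.98, while Tex101 in βTC3 remains between 0.05 and 0.37.

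Deacetylase inhibitors, which raise histone acetylation by blocking its removal, acted on these genes in different directions. Averaged over the 13 compounds at 24 h, Tex19.1 was higher in αTC1 by 0.92 ± 0.11 (adjusted p = 1.0e-10), and Tuba3a was lower in αTC1 by -0.38 ± 0.12 and -0.28 ± 0.08 (adjusted p = 0.0060 and 0.0028) and in βTC3 by -0.44 ± 0.08 and -0.25 ± 0.06 (adjusted p = 7.5e-06 and 5.1e-04). Tex101 was higher by 0.14 ± 0.06 in αTC1 (adjusted p = 0.0288), a call lost after quantile normalization (0.12) or median centring (0.11), without hydroxamic acids (0.0565), without ITF-2357 (0.12) and without replicate 1 or 2 (0.13 and 0.14). Both αTC1 Tuba3a calls were lost without hydroxamic acids (-0.24 by _s_at and -0.11 by _x_at), the _s_at call also without replicate 1 (-0.27), and the βTC3 _x_at call in batches 7 to 10 alone (-0.19). Batches 7 to 10 hold arrays of only some of the 13 compounds, so that average covers fewer of them. The average called 48.7% of probe sets in αTC1 and 42.1% in βTC3, so a call alone sets no member apart. Rassf1 did not pass in either line (-0.02 ± 0.06 in αTC1 and -0.11 ± 0.05 in βTC3), nor did Tex19.1 (0.10 ± 0.07) and Tex101 (0.08 ± 0.04) in βTC3.

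Set against those averages, 5-azadeoxycytidine exceeded the deacetylase inhibitors for every probe set in αTC1, by 1.70 for Tex19.1, 1.31 for Tex101, 2.20 and 1.84 for Tuba3a and 1.80 for Rassf1 (log2). In βTC3 the same difference was 1.10 for Tex19.1, 0.05 for Tex101, 1.60 and 1.33 for Tuba3a and 1.60 for Rassf1. With zebuarine and RG-0108 averaged in, the excess in αTC1 was -0.10 for Tex19.1, 0.34 for Tex101, 1.02 and 0.75 for Tuba3a and 0.62 for Rassf1. In βTC3 that mean excess was 0.32 for Tex19.1, 0.00 for Tex101, 0.78 and 0.65 for Tuba3a and 0.94 for Rassf1. Doses and batches differed between the compounds of these averages.

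Tex19.1 was the member that deacetylase inhibitors moved furthest, in αTC1. ITF-2357, a hydroxamic acid given at 10 µM, took its arrays to 8.59, 8.35 and 6.36, against 3.03 to 3.78 in DMSO. All 3 treated arrays were above every DMSO array, by within-batch changes of 5.35, 5.06 and 2.95. The change was 4.46 ± 0.23 (adjusted p = 1.6e-26), and 3.21 with log2(value + 16), in a comparison that called 43.8% of probe sets. At 6 h the ITF-2357 arrays stood at 3.63, 3.70 and 3.73, a change of 0.45 ± 0.13 (adjusted p = 0.0042, with 35.3% of probe sets called).

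In βTC3 the same compound left Tex19.1 at 3.35, 3.42 and 3.65, against 2.91 to 3.54 in DMSO, a change of 0.23 ± 0.15 (adjusted p = 0.252), while 37.5% of probe sets were called. All 3 βTC3 arrays of ITF-2357 came from batch 10, where within-batch changes were -0.12, -0.05 and 0.18. The αTC1 change exceeded the βTC3 change by 4.18 ± 0.27 (adjusted p = 7.0e-29), where 24.6% of probe sets differed.

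Trichostatin A (0.22 µM) raised Tex19.1 in αTC1 to 5.70, 4.58 and 5.00, a change of 1.76 ± 0.23 (adjusted p = 9.5e-10). CI-994 (10 µM), an ortho-amino anilide, raised it to 4.70 and 5.02 in its 2 arrays, a change of 1.47 ± 0.27 (adjusted p = 1.2e-05). All of these arrays lay above the DMSO range. CRA-024781 (1.5 µM), pyroxamide (10 µM) and PXD101 (2.4 µM) raised it by 1.21, 0.85 and 0.81. These 5 compounds called 40.1%, 28.6%, 37.5%, 39.1% and 38.4% of probe sets in αTC1, in the order named.

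In all, 6 of the 13 deacetylase inhibitors raised Tex19.1 in αTC1 at 24 h and 0 lowered it, and in each of the 6 every array was above every DMSO array. The share of all probe sets separated in this way was not counted, so the separation alone does not set Tex19.1 apart. Changes under the other 7, including SAHA, LBH-589 and scriptaid at 1.3, 0.015 and 2.0 µM, ran from -0.02 to 0.50. Compound and batch were partly tied. ITF-2357, CRA-024781, pyroxamide and PXD101, which raised it, were in batches 7 to 10 only. SAHA, LBH-589, scriptaid, MS-275 and MGCD-0103, which did not, were in batches 4 to 6 only. CI-994, which raised it, was in batches 4 and 6. In βTC3 0 of 13 raised it, with changes from -0.07 to 0.23. Each compound called between 0.317% and 43.8% of probe sets in αTC1 and between 0.0278% and 40.2% in βTC3.

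The rise in αTC1 exceeded that in βTC3 by 1.66 ± 0.26 under trichostatin A (adjusted p = 8.0e-08, with 25.8% of probe sets differing) and by 1.31 ± 0.29 under CI-994 (adjusted p = 2.8e-04, 13.8% differing). Over the deacetylase inhibitors as a group the excess was 0.84 ± 0.13 (adjusted p = 4.6e-08, 32.2% differing), and 0.56 without ITF-2357 (adjusted p = 3.3e-04). By structural class, the αTC1 change in Tex19.1 averaged 1.14 ± 0.12 under hydroxamic acids, 0.78 ± 0.17 under ortho-amino anilides and 0.26 ± 0.18 under cyclic tetrapeptides, and the last did not pass (adjusted p = 0.297). The classes called 48.4%, 41.7% and 32.8% of probe sets in αTC1 and 40.5%, 41% and 23.6% in βTC3. Doses and batches differed, and the differences between classes were not tested.

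Tex101 moved less under deacetylase inhibitors. In αTC1 ITF-2357 arrays stood at 3.51, 3.37 and 2.87, against 2.61 to 3.13 in DMSO, and 1 of the 3 overlapped DMSO. The change was 0.50 ± 0.11 (adjusted p = 1.8e-04). Trichostatin A raised Tex101 by 0.48 ± 0.11 (adjusted p = 3.7e-04) and CRA-024781 by 0.35 (adjusted p = 0.0125). These were the 3 of 13 that passed in αTC1, and 0 of 13 passed in βTC3, where ITF-2357 passed only without its replicate 1 (0.28). ITF-2357, trichostatin A and CRA-024781 called 43.8%, 40.1% and 37.5% of all probe sets in αTC1, and ITF-2357 37.5% in βTC3. The counts alone do not set Tex101 apart.

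Where it was called, Tuba3a fell rather than rose. In αTC1, 4 of 13 deacetylase inhibitors lowered it by _s_at and 6 of 13 by _x_at, and in βTC3 8 and 4 of 13 did, while 0 raised it in either line at 24 h. Single compounds could call many probe sets, ITF-2357 43.8% in αTC1 and 37.5% in βTC3. The counts alone therefore do not set Tuba3a apart. Changes by _s_at ran from -0.85 under CRA-024781 to 0.02 under LBH-589 in αTC1 and from -0.83 under apicidin to 0.13 under HC-toxin in βTC3. Under trichostatin A the αTC1 change by _x_at was lower than the βTC3 change by a log2 difference of -0.73 ± 0.22 (adjusted p = 0.0064).

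Of the other alpha tubulins, 0 of 4 measured passed under 5-azadeoxycytidine in either line, where 5.78% and 7.32% of all probe sets were called. With so few called, that count does not set Tuba3a apart. Tuba1a changed by 0.06 ± 0.09 in αTC1 and 0.09 ± 0.08 in βTC3. Under ITF-2357, 3 of the 4 fell in αTC1 and 4 of 4 in βTC3, where 43.8% and 37.5% of all probe sets were called, among them Tuba1b by -1.44 in αTC1 and -0.89 in βTC3. Under the average deacetylase inhibitor 2 fell and 1 rose in αTC1, and 3 fell in βTC3, beside 48.7% and 42.1% called over all.

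The change of Rassf1 under deacetylase inhibitors varied between compounds and times. Doses and batches differed, and differences between classes or between times were not tested. At 6 h in αTC1 11 of 13 lowered it, with changes from -0.70 under CI-994 to -0.09 under ITF-2357, and each compound called between 8.36% and 37.7% of probe sets. The average was -0.40 ± 0.05 (adjusted p = 5.4e-10) in αTC1 and -0.16 ± 0.06 (adjusted p = 0.0191) in βTC3, where 3 of 13 passed; these averages called 46% and 43.6% of probe sets. At 24 h in αTC1, 5 of 13 lowered Rassf1, all of them hydroxamic acids, and 3 raised it, CI-994, MGCD-0103 and HC-toxin. Single compounds could call many probe sets there, ITF-2357 43.8% and CI-994 28.6%, so these counts alone do not set Rassf1 apart.

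ITF-2357 arrays of Rassf1 at 24 h stood at 6.62, 5.82 and 6.25 in αTC1, against 6.76 to 7.22 in DMSO, and at 5.88, 5.90 and 5.82 in βTC3, against 6.27 to 6.83 in DMSO. Every treated array was below every DMSO array in both lines. The changes were -0.84 ± 0.12 in αTC1 (adjusted p = 1.5e-08) and -0.70 ± 0.12 in βTC3 (adjusted p = 1.3e-06). The αTC1 arrays with the highest Tex19.1 levels named here thus had lowered Rassf1. CI-994 arrays stood at 7.64 and 7.33 in αTC1, both above the DMSO range, a change of 0.62 ± 0.14 (adjusted p = 4.0e-04).

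The CI-994 change in Rassf1 in αTC1 exceeded that in βTC3 by 0.54 ± 0.18 (adjusted p = 0.0284). Hydroxamic acids averaged -0.27 ± 0.06 in αTC1 (adjusted p = 2.0e-04) and -0.19 ± 0.06 in βTC3 (adjusted p = 0.0053). Ortho-amino anilides averaged 0.45 ± 0.09 in αTC1 (adjusted p = 1.6e-05) and 0.08 ± 0.08 in βTC3, and cyclic tetrapeptides 0.29 ± 0.09 in αTC1 (adjusted p = 0.0114) and -0.06 ± 0.09 in βTC3. The average over all 13, which did not pass, passed in βTC3 without replicate 1 (-0.15), in batches 7 to 10 (-0.27) and without anilides (-0.16). In αTC1 it joins falls and rises: it passed in batches 7 to 10 (-0.28) and without anilides (-0.16), and was 0.39 without hydroxamic acids. The averages in batches 7 to 10 cover only compounds with arrays there. In αTC1 they leave out all the anilides, SAHA, LBH-589 and scriptaid, so they are not a check of the same average.

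**Figure D3:**
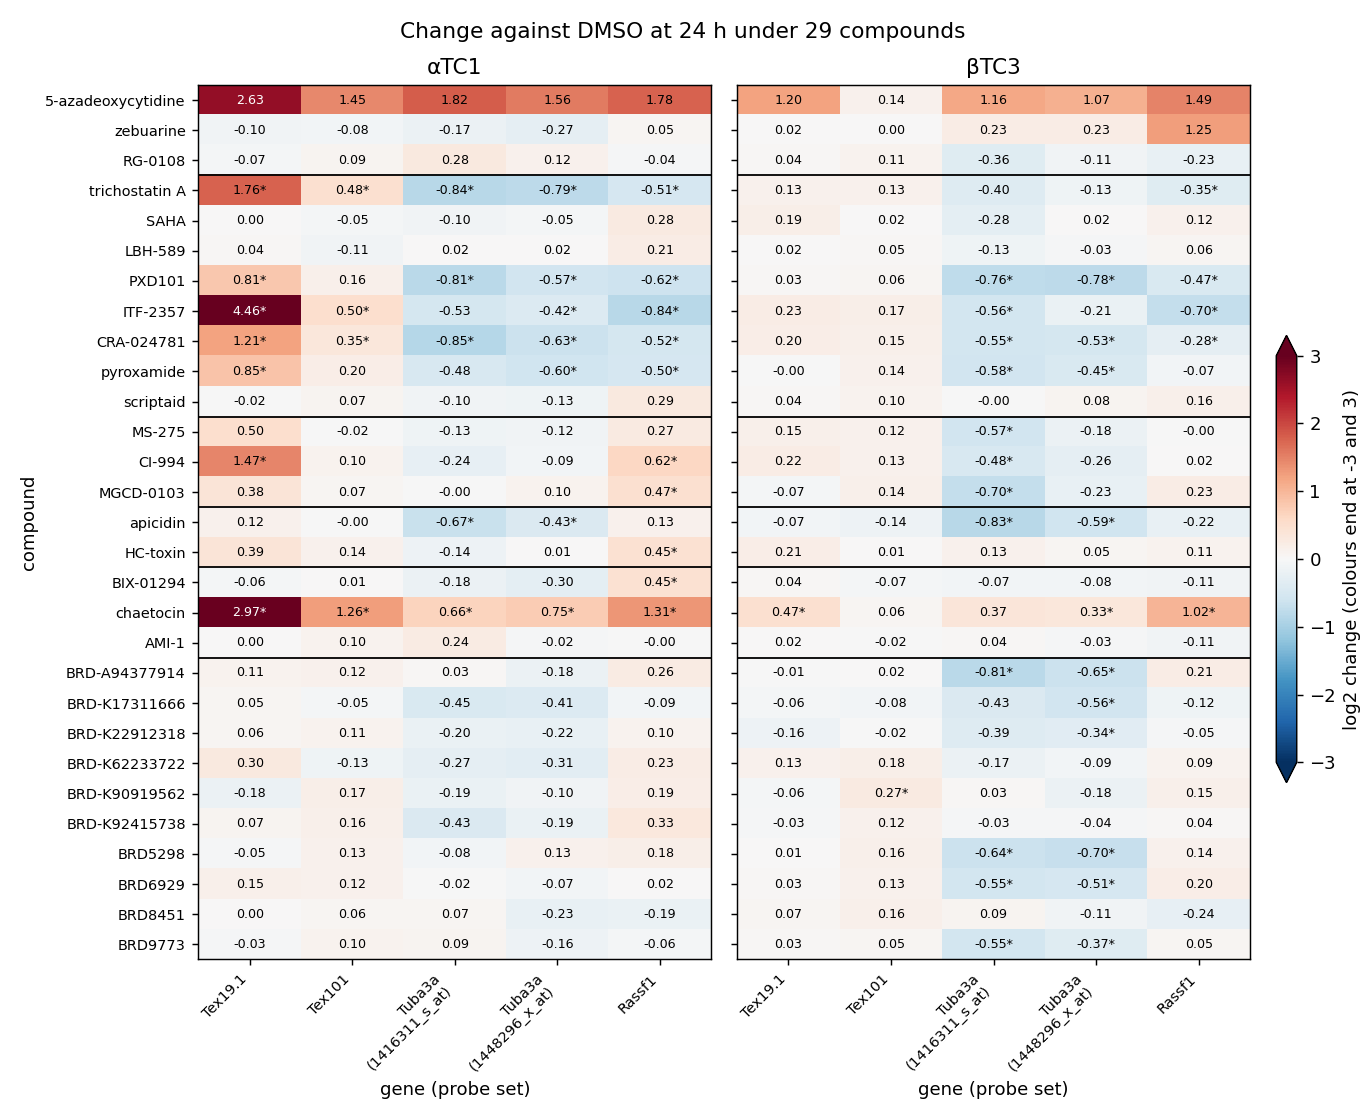
Change against DMSO at 24 h (log2, colour and printed value) for the 5 probe sets (horizontal) under the 29 compounds (vertical, grouped by class with lines between classes) in αTC1 (left) and βTC3 (right); a star marks an adjusted p under 0.05 and is not used for the 3 inhibitors of DNA methylation in the top rows. The αTC1 Tex19.1 column holds rises up to 4.46 under deacetylase inhibitors where the βTC3 column stays at or below 0.23, and the Tuba3a columns are mostly blue under the same compounds.

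Chaetocin, a fungal product known as an inhibitor of histone lysine methyltransferases, was the compound outside the inhibitors of DNA methylation that raised all 4 genes in αTC1. Tex19.1 arrays at 24 h stood at 6.19, 5.63, 6.16 and 7.13 in αTC1, against 3.03 to 3.78 in DMSO, and at 3.56, 3.64 and 3.78 in βTC3, against 2.91 to 3.54 in DMSO. All chaetocin arrays were above DMSO, by a wide gap in αTC1 and a narrow one in βTC3. The changes were 2.97 ± 0.21 in αTC1 (adjusted p = 1.8e-19) and 0.47 ± 0.14 in βTC3 (adjusted p = 0.0056), and with log2(value + 16) they were 1.84 in αTC1 and 0.19 in βTC3. The αTC1 change exceeded the βTC3 change by 2.51 ± 0.25 (adjusted p = 2.5e-15), where 23.8% of probe sets differed.

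Tex101 showed the same split between lines. Its chaetocin arrays stood at 4.82, 3.86, 3.78 and 3.98 in αTC1, against 2.61 to 3.13 in DMSO, and at 2.86, 2.92 and 2.82 in βTC3, against 2.63 to 3.04 in DMSO. The change was 1.26 ± 0.11 in αTC1 (adjusted p = 2.5e-16) and 0.06 ± 0.09 in βTC3 (adjusted p = 0.724), with a difference of 1.25 ± 0.14 (adjusted p = 3.5e-13).

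Rassf1 rose in both lines under chaetocin. Its arrays stood at 8.06, 8.69, 8.65 and 8.27 in αTC1, against 6.76 to 7.22 in DMSO, and at 7.66, 7.81 and 7.38 in βTC3, against 6.27 to 6.83 in DMSO. No chaetocin array reached down to DMSO. The changes were 1.31 ± 0.11 in αTC1 (adjusted p = 3.5e-16) and 1.02 ± 0.11 in βTC3 (adjusted p = 4.9e-12), and the difference of 0.29 ± 0.16 between lines did not pass (adjusted p = 0.182).

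Tuba3a was uneven under chaetocin. By _s_at the αTC1 arrays stood at 3.61, 5.39, 5.09 and 4.49, and the first lay inside the DMSO range of 3.36 to 4.23. The change was 0.66 ± 0.22 (adjusted p = 0.0114), a call lost without replicate 2 (0.48) or replicate 3 (0.57). By _x_at it was 0.75 ± 0.16 (adjusted p = 4.0e-05). In βTC3 the changes were 0.37 ± 0.17 (adjusted p = 0.089) and 0.33 ± 0.12 (adjusted p = 0.0376), the second lost without replicate 1 or 2.

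Chaetocin called 45.1% of probe sets in αTC1 and 28.3% in βTC3 at 24 h, 21% and 13.9% of them as higher, so its effect was broad. At 6 h it already raised all 5 probe sets in αTC1, by 0.42 for Tex19.1, 0.35 for Tex101, 0.58 and 0.36 for Tuba3a and 0.39 for Rassf1 (adjusted p from 0.0029 to 0.0366), and 0 of 5 passed in βTC3. It then called 29.6% of probe sets in αTC1 and 21.6% in βTC3. Of the remaining compounds at 24 h, BIX-01294 raised Rassf1 by 0.45 ± 0.12 in αTC1 (adjusted p = 0.0376) while calling 1.2% of probe sets there and 0.944% in βTC3. BRD-K90919562 raised Tex101 by 0.27 in βTC3 (adjusted p = 0.0493), where the code-named compounds called between 0.0611% and 23.3% of probe sets. Neither AMI-1 in either line nor any code-named compound in αTC1 moved a member past the threshold at 24 h, and in βTC3 6 of the 10 code-named compounds lowered Tuba3a by _x_at.

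**Figure D4:**
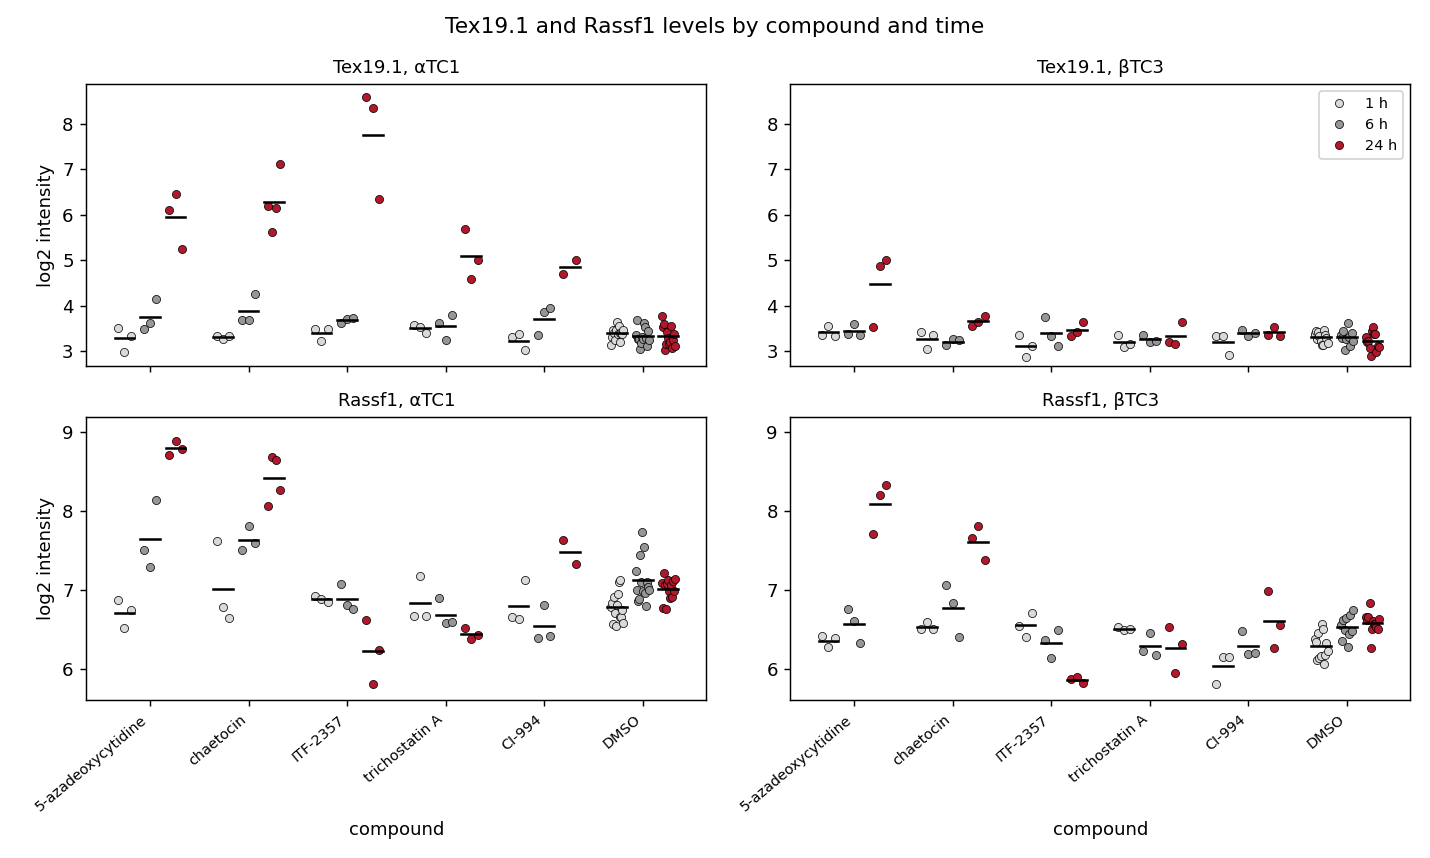
Log2 intensity of Tex19.1 (top) and Rassf1 (bottom) in αTC1 (left) and βTC3 (right) under 4 tested compounds, 5-azadeoxycytidine and DMSO at 1, 6 and 24 h, with 1 point per array and a line at each group mean. Tex19.1 at 24 h in αTC1 reaches 8.59 under ITF-2357 and 7.13 under chaetocin but at most 3.78 under either in βTC3, whereas Rassf1 is above DMSO under 5-azadeoxycytidine and chaetocin and below it under ITF-2357 in both lines.

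Likeness between genes was described by Pearson's r over the 58 changes at 24 h. These changes, under 29 compounds in both lines, share the DMSO arrays of each line and include the inhibitors of DNA methylation on which the members were chosen, so no test is given. It was 0.733 between Tex19.1 and Tex101, 0.792 and 0.751 between Rassf1 and the Tuba3a probe sets _x_at and _s_at, and 0.934 between those probe sets. It was 0.505 and 0.462 between Tex101 and Tuba3a (_x_at and _s_at), 0.369 between Tex101 and Rassf1, 0.293 and 0.246 between Tex19.1 and Tuba3a, and 0.153 between Tex19.1 and Rassf1. Among all genes, those most like Tex19.1 by the same measure were Grhl2 (0.81), Fhdc1 (0.78), its paralogue Tex19.2 (0.78), Itih5 (0.76) and H2bc22 (0.74). Those most like Tex101 were Tex19.1, Ptpn4 (0.72), Aldh8a1 (0.68), Tex19.2 (0.67) and Usp48 (0.67). Tuba3a and Rassf1 shared Rbm15 (0.80 and 0.87), Xpo1 (0.81 and 0.83) and Pcf11 (0.80 and 0.83) among their nearest genes, with Kif23 and Tbpl1 for Tuba3a and Rsrc2 and Hells for Rassf1.

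Tex19.2 also rose with Tex19.1 in αTC1. It rose by 0.68 under 5-azadeoxycytidine, 1.60 under chaetocin and 1.24 under ITF-2357 in αTC1, and by 0.56 under 5-azadeoxycytidine in βTC3, where its change under ITF-2357 was -0.03. Rbm15, the gene most like Rassf1, changed by 1.25 in αTC1 and 0.71 in βTC3 under 5-azadeoxycytidine, and by -0.71 and -0.55 under ITF-2357. Tex19.2 and Rbm15 were picked for likeness over changes that include these, so their moving with the members follows from that choice.

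Other germline genes were mostly near DMSO under 5-azadeoxycytidine. Of 57 other germline genes listed, 36 were measured, and 5-azadeoxycytidine raised 0 of them in αTC1 or βTC3 by limma; 1 was lowered, Rec8 in βTC3 (-0.66 ± 0.18), and 1 in αTC1 and 4 in βTC3 had an unadjusted p under 0.05. Over all probe sets 5.78% were called in αTC1 and 7.32% in βTC3. Their median change was 0.04 in αTC1 and 0.01 in βTC3, beside -0.02 and -0.01 over all probe sets. The germ cell genes Dazl, Ddx4 and Sycp3 changed by 0.15, -0.06 and 0.04 in αTC1 and by 0.20, -0.04 and 0.18 in βTC3. Of 12 germ and Sertoli cell markers, 0 passed in either line.

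Under chaetocin the 36 held 15 rises and 2 falls in αTC1, against a background of 45.1% called, and 11 rises with 1 fall in βTC3, against 28.3%. They were led by Tex14, a gene of germ cell bridges, at 3.85 ± 0.15 in αTC1 and 2.31 ± 0.14 in βTC3. Their median change was 0.19 in αTC1 and 0.07 in βTC3, beside 0.03 and -0.02 over all probe sets. Under the average deacetylase inhibitor 3 of 36 rose and 1 fell in αTC1, and 7 rose in βTC3, beside 48.7% of all probe sets called in αTC1 and 42.1% in βTC3. Tex15 was among them, at 0.66 ± 0.06 in αTC1 and 0.81 ± 0.07 in βTC3. In βTC3 under ITF-2357, where Tex19.1 did not pass, 4 of the 36 rose and 1 fell, beside 37.5% of all probe sets called. The median change of the 36 was 0.01, and the largest rises were Tex15 at 2.33 ± 0.15 and Nxf2 at 2.37 ± 0.16.

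The rest of the RASSF family did not pass under 5-azadeoxycytidine. Of the 6 other RASSF genes measured, 0 passed in either line (1 in each had an unadjusted p under 0.05), with changes from -0.33 (Rassf2) to 0.06 (Rassf9) in αTC1 and from -0.42 (Rassf7) to 0.11 (Rassf3) in βTC3. Of 12 measured genes listed for the Hippo and apoptosis pathway, 0 passed in αTC1 and 1 rose in βTC3, the kinase gene Lats1 (0.44). Lats1 averaged 2.99 in βTC3 in DMSO, a level at which background and a low transcript level cannot be told apart. Of 21 measured tumour suppressors known for promoter methylation in cancer, 0 passed in either line, and 3 in αTC1 and 4 in βTC3 had an unadjusted p under 0.05. Over all probe sets, 5-azadeoxycytidine called 5.78% in αTC1 and 7.32% in βTC3. Lists this short would thus hold few calls, and these counts do not set Rassf1 apart from the listed genes.

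Among 14 genes of the DNA methylation machinery, the chromatin remodeller Hells rose under 5-azadeoxycytidine by 1.00 ± 0.18 in αTC1 and 0.53 ± 0.13 in βTC3, while Mbd2 fell in αTC1 (-0.31) and Dnmt3a in βTC3 (-0.63). Of 13 targets of p53, αTC1 had 2 rises and 1 fall and βTC3 had 4 rises, where 5.78% and 7.32% of all probe sets were called, with Plk2 at 0.86 ± 0.23 in αTC1 and 1.57 ± 0.27 in βTC3. These 4 calls in βTC3, Plk2, Perp, Trp53inp1 and Cdkn1a, came with the rises of Tuba3a and Rassf1, and their part in those rises was not tested. Of 9 interferon response genes, 0 passed in αTC1 and 1 rose in βTC3.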

How the data were processed

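Cells of αTC1 and βTC3 were profiled on Affymetrix arrays. The authors deposited 1 table of linear intensities summarised by RMA, per the submitters' processing notes; normalization settings are not given in the sources used here. The deposited intensity values ran from 3.96 to 13635, and log2 was taken of them here. Of 22716 probe sets, 18003 had 1 gene symbol, 287 several, 4426 none, and 90 were array controls. Samples were grouped by array title, and no arrays were identical. For each line and time, limma 3.58.1 (R 4.3.3) fitted all compound groups and DMSO with the labelled batch as a fixed term; line differences came from 1 fit of both lines at 24 h, and time differences from fits of DMSO arrays. Calls used Benjamini-Hochberg adjusted p under 0.05 over the 18003 probe sets, and changes are log2 ± SE. Within-batch change is an array minus the DMSO mean of its batch. The members, gene lists and tests were chosen with earlier results of these data known. All probe sets of the members are named; other genes are the 5 most alike per member by Pearson's r and up to 4 per list by size of change, with a few named after their values were seen (Tuba1a, Dazl, Ddx4, Sycp3 and the extremes of the RASSF family). On simulated data with 100 changed probe sets per size, the 5-azadeoxycytidine comparison recovered 48% in αTC1 and 57% in βTC3 at a log2 change of 0.5, and 97% in both at 1. Alternatives covered normalization, batch, arrays used, pseudocount and left-out replicates.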

Additional observations from a re-analysis of the deposited data

Results flagged for a closer look

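Each of these 8 values is an αTC1 change at 24 h minus the βTC3 change, taken up because the difference between lines itself passed limma's test. For Tex19.1 the excess in αTC1 was 2.51 under chaetocin, 4.18 under ITF-2357, 1.66 under trichostatin A, 1.31 under CI-994 and 0.84 over the deacetylase inhibitors as a group. The ITF-2357 value rests on βTC3 arrays of batch 10 alone. For Tex101 the excess was 1.25 under chaetocin. For Tuba3a by _x_at the difference under trichostatin A was -0.73. For Rassf1 the excess under CI-994 was 0.54, from 2 arrays in αTC1. Levels of Tex19.1 and Tex101 in DMSO did not differ between lines by the same test. No cause of these differences was tested.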

How the results depend on the processing

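Under 5-azadeoxycytidine no direction turned in the alternatives run. With log2(value + 16) the αTC1 changes were 1.61 for Tex19.1, 0.61 for Tex101, 1.14 and 0.96 for Tuba3a and 1.66 for Rassf1, and the βTC3 Tuba3a changes were 0.69 and 0.67, since that pseudocount shrinks low values by construction. The number of probe sets it changed was 1041 in αTC1, and between 425 and 605 with 1 replicate left out; in βTC3 it was 1318, and between 471 and 1316 with 1 left out, with 775 without the batch term and 475 from only the arrays compared. Its excess over deacetylase inhibitors for Rassf1 in αTC1 was 1.93 from only the arrays compared, 2.12 in batches 7 to 10, 1.39 without hydroxamic acids and 1.94 without anilides. In batches 7 to 10 every average of deacetylase inhibitors covers only the compounds with arrays there, in αTC1 none of the anilides. For the mean deacetylase inhibitor in αTC1, Rassf1 turned to 0.39 without hydroxamic acids and passed at -0.28 in batches 7 to 10 and -0.16 without anilides. Tex101 no longer passed after quantile normalization (0.12), median centring (0.11), without hydroxamic acids (0.0565), without ITF-2357 (0.12), or without replicate 1 or 2, with left-out replicates giving 0.13 to 0.15. Tuba3a there did not pass without hydroxamic acids (-0.24 and -0.11), and by _s_at ran from -0.43 to -0.27 with replicates left out. In βTC3, Rassf1 passed at -0.27 in batches 7 to 10, at -0.16 without anilides, and without replicate 1, with left-out replicates giving -0.15 to -0.0693; Tex101 passed at 0.11 without cyclic tetrapeptides; and Tuba3a by _x_at did not pass in batches 7 to 10 (-0.19), nor did its difference between lines in DMSO (-0.17). For chaetocin and ITF-2357, the single compounds outside the inhibitors of DNA methylation put through the alternatives, 197 left the call as it was. Another 15 lost the call, all of them for Tuba3a, and 8 gained one. A change of sign with no call in either fit was counted among the 197. Leaving out replicates or ITF-2357 from the deacetylase inhibitors was chosen after seeing the data. Same-numbered replicates did not deviate together (median r of -0.05 over 36 αTC1 pairs and -0.01 over 39 βTC3 pairs). With replicate number as a block, the excess of 5-azadeoxycytidine over deacetylase inhibitors was 1.78, 1.34, 2.17, 1.80 and 1.78 in αTC1 and 1.14, 0.04, 1.54, 1.28 and 1.60 in βTC3, for Tex19.1, Tex101, both Tuba3a probe sets and Rassf1. A filter on low levels removed Tex19.1, Tex101 and Tuba3a, so it gave no value for them. The causes of these shifts were not tested.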
